A study of Homo sapiens with 6 samples.

Results

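AP-1 is a dimer of transcription factors of the basic leucine zipper (bZIP) class, and its subunits FOS, FOSB, FOSL1, FOSL2, JUN, JUNB, JUND, ATF3 and JDP2 were described here in the human lung adenocarcinoma line H2122. The subunits were found by gene symbol, and all 9 were present among the 23368 genes of the deposited count table. Expression had been measured by RNA sequencing in 3 libraries from H2122 cells transfected with a control shRNA and 3 from H2122 cells transfected with an shRNA that targets LYCAT (the acyltransferase gene now called LCLAT1), each after 48 hours. The labels give no other genetic change or agent for either group, and both groups share the cell line and the transfection. Only 1 cell line was used, the knockdown is by shRNA although the series title calls it a knockout, and the labels leave unsaid whether replicate libraries are separate cultures. The p-values therefore reflect only how far these libraries spread, and that spread may be technical. The question was which subunits hold most of the AP-1 mRNA in these cells and which of them differed between the shRNAs.

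A leucine zipper holds the paired subunits together, and the basic regions beside it grip DNA at the TPA response element or, for some pairs, at the cAMP response element. JUN proteins can pair with each other or with a FOS protein, while FOS proteins need a JUN partner. The make-up of the dimer is known to set how strongly it activates: FOS, FOSB and JUN carry strong activation domains, FOSL1 and FOSL2 lack the strong one of FOS, and JDP2 and, in many settings, ATF3 act as repressors. In lung adenocarcinoma FOSL1 is known as a subunit maintained by RAS and ERK signalling.

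Library totals ranged from 4075367 to 4930079 counts for control shRNA and from 3118946 to 4730453 for LYCAT shRNA. Of the 23368 genes, 11097 were abundant enough to test with edgeR. LCLAT1 itself stood at 56.6, 61.0 and 65.1 CPM (counts scaled to library size, per 1000000) with control shRNA and at 18.9, 22.5 and 23.5 CPM with LYCAT shRNA, so the target was lower in every library of its group. Of 10 epithelial markers 9 were tested and 5 fell, none rose (9.26% of all tested genes fell), and EPCAM was counted at least 1962 times in each library. In bulk RNA a smaller share of such cells and less RNA per cell cannot be told apart, and the part of these markers in the AP-1 results was not tested. Markers of blood cells summed to at most 1.21 CPM and markers of endothelium to at most 3.21 CPM, with PTPRC and PECAM1 at 0 in every library. The summed level of 9 fibroblast markers was 97.7, 139 and 37.1 CPM with control shRNA and 48.2, 24.8 and 40.1 CPM with LYCAT shRNA. COL1A1 alone gave 59.2, 82.5 and 28.3 CPM with control shRNA and 25.9, 16.4 and 22.8 CPM with LYCAT shRNA. COL1A2 was counted 67, 118 and 4 times with control shRNA and 26, 5 and 19 times with LYCAT shRNA. For COL3A1 the counts were 47, 85 and 5, and 18, 0 and 6. THY1 (22, 10 and 2, and 3, 2 and 1) was likewise highest in control libraries 1 and 2. LUM (5, 19 and 1, and 7, 1 and 7) was highest in control library 2, and ACTA2 (37, 40 and 24, and 47, 17 and 37) in LYCAT shRNA library 1. DCN, PDGFRA and PDGFRB were counted at most 3 times in any library. Control libraries 1 and 2 stood apart in the sum, and the AP-1 results are also given without them.

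Of the 9 subunits 7 were tested, and FOSL1 and JUN rose with LYCAT shRNA, JUNB and JDP2 fell, and FOS, FOSL2 and JUND did not pass. A gene is described as changed where the edgeR quasi-likelihood p, adjusted over all tested genes, was under 0.05. That held for 19.1% of all tested genes, 9.81% higher and 9.26% lower. The same 4 subunits were those whose CPM did not overlap between the groups, which held for 32.8% of all tested genes. Without control libraries 1 and 2, an alternative chosen after seeing the data in which the remaining control library is taken to vary as the other group does, the same 2 rose (FOSL1 log2 1.68 and JUN 0.62) and the same 2 fell (JUNB -0.64 and JDP2 -1.44).

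**Figure D1:**
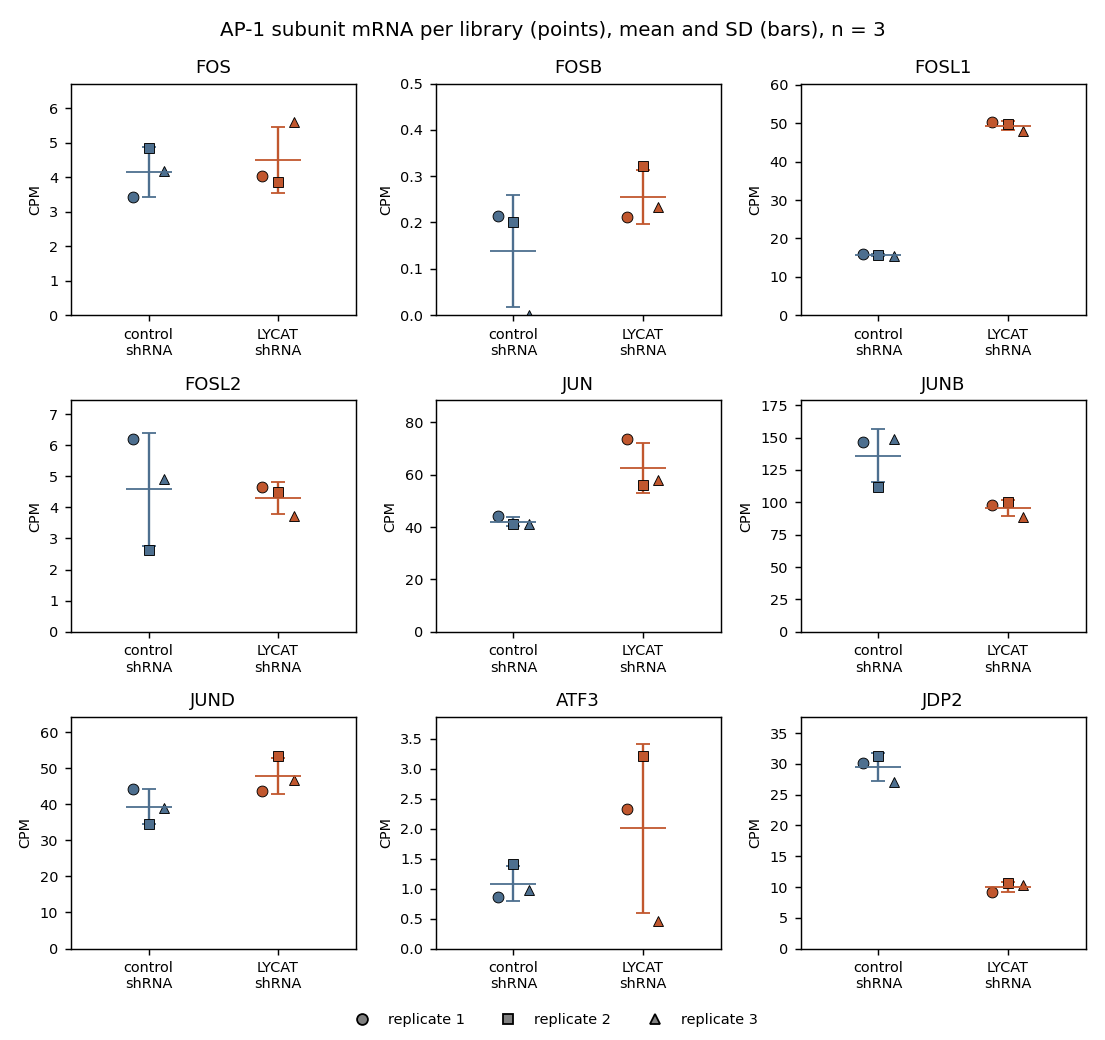
CPM of each AP-1 subunit (vertical axes, linear, each from 0) in the 3 control shRNA libraries (blue) and the 3 LYCAT shRNA libraries (orange); symbols mark the replicate number, horizontal bars the mean and whiskers the SD. FOSL1, JUN, JUNB and JDP2 show no overlap between the groups. FOSB and ATF3 have the lowest means, and reach at most 0.322 and 3.22 CPM in any library.

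FOSL1 was the FOS family gene with the largest difference. This subunit, also called FRA1, has no strong activation domain of its own and is linked to migration and invasion of carcinoma cells. The control libraries gave 15.8, 15.8 and 15.5 CPM for FOSL1, and those with LYCAT shRNA gave 50.3, 49.9 and 48.0 CPM. Every LYCAT shRNA library was thus above every control library, and the spread within each group was small. The mean was 15.7 ± 0.181 CPM with control shRNA and 3.14-fold higher, at 49.4 ± 1.22 CPM, with LYCAT shRNA (SD, n = 3 each), a log2 fold change of 1.65 (SE 0.123, edgeR quasi-likelihood adjusted p = 3.86e-19). Among the 1040 genes that rose with a mean of at least 5 CPM, FOSL1 was number 24 by size of change. With any single library left out, its log2 fold change was 1.64 to 1.67.

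FOS, the first cellular member of the family and a classic immediate early gene, was scarce. It stood at 3.42, 4.85 and 4.18 CPM with control shRNA and at 4.03, 3.86 and 5.59 CPM with LYCAT shRNA, and the groups overlapped. Its log2 fold change was 0.12 with a 95% interval of -0.49 to 0.74 (edgeR adjusted p = 0.838), an interval that neither shows a difference nor limits it closely. The counts behind these values were 16, 24 and 17, and 19, 12 and 24. FOSL2, or FRA2, a subunit close to FOSL1, stood at 6.20, 2.63 and 4.91 CPM with control shRNA and at 4.67, 4.51 and 3.73 CPM with LYCAT shRNA. Control library 2 was the lowest and control library 1 the highest of the 6, so the control libraries enclosed all values of the other group. Its log2 fold change was -0.08 (95% interval -0.71 to 0.55, edgeR adjusted p = 0.898). FOSB was counted 1, 1 and 0 times in the control libraries and once in each LYCAT shRNA library, under the 3 counts taken as the detection floor (0.606 to 0.966 CPM), and was not tested.

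JUN, the founding member of its family and a strong activator, stood at 44.0, 41.0 and 41.3 CPM with control shRNA and at 73.6, 56.0 and 58.0 CPM with LYCAT shRNA. The groups did not overlap, and LYCAT shRNA library 1 was well above the other two of its group. The mean rose from 42.1 ± 1.66 to 62.6 ± 9.65 CPM, with a log2 fold change of 0.58 (SE 0.101, edgeR adjusted p = 5.72e-06). Without LYCAT shRNA library 1 it was 0.44 (edgeR adjusted p = 0.00571), the lowest of the values with a library left out. By size JUN was number 240 among the 1040 genes that rose at this level of expression.

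JUNB, a weaker activator that can oppose JUN, moved the other way. It stood at 146, 112 and 149 CPM in the control libraries and at 98.2, 100 and 88.6 CPM with LYCAT shRNA. The lowest control library, number 2, was still above every LYCAT shRNA library. The mean fell 1.42-fold, from 136 ± 20.5 to 95.6 ± 6.20 CPM, a log2 fold change of -0.50 (SE 0.0831, edgeR adjusted p = 1.46e-05). In the GENCODE v29 annotation 259 bases, or 14.2% of the exon length of JUNB, overlap exons of HOOK2 on the opposite strand. HOOK2, which encodes a microtubule adaptor, also fell, from 47.3 ± 3.77 to 32.7 ± 2.34 CPM (log2 -0.52, edgeR adjusted p = 0.000168). Whether counting used strand is not given, so reads from the shared bases cannot be told apart, and their part in either fall was not tested.

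JUND, the subunit often found in resting cells, stood at 44.2, 34.6 and 39.1 CPM with control shRNA and at 43.7, 53.4 and 46.6 CPM with LYCAT shRNA. The groups overlapped, since control library 1 exceeded LYCAT shRNA library 1. The log2 fold change was 0.27 (95% interval 0.06 to 0.49, edgeR adjusted p = 0.0629), which did not pass. Without control library 1 JUND passed as higher (log2 0.37, edgeR adjusted p = 0.0248). It passed in no other alternative, and the other fits with 1 library left out gave edgeR adjusted p = 0.061 to 0.275.

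JDP2, a repressor that pairs with JUN proteins and recruits histone deacetylase, was the subunit with the largest fall. It stood at 30.1, 31.3 and 27.0 CPM in the control libraries and at 9.12, 10.6 and 10.3 CPM with LYCAT shRNA, a wide gap between the groups. The mean fell 2.98-fold, from 29.5 ± 2.22 CPM (SD, n = 3) to 33.9% of that level, with a log2 fold change of -1.57 (SE 0.158, edgeR adjusted p = 3.06e-13). Only 9 of the 968 genes that fell with a mean of at least 5 CPM fell further on the log2 scale. Leaving out any single library gave log2 values of -1.63 to -1.51. ATF3, a stress-induced factor that can repress or activate, was counted 4, 7 and 4 times with control shRNA and 11, 10 and 2 times with LYCAT shRNA. It was too scarce to test in the full fit, and its level of 0.855, 1.42 and 0.983 CPM against 2.33, 3.22 and 0.466 CPM overlapped between the groups. When genes of every count were kept, its edgeR adjusted p was 0.423 (log2 0.80, SE 0.563).

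**Figure D2:**
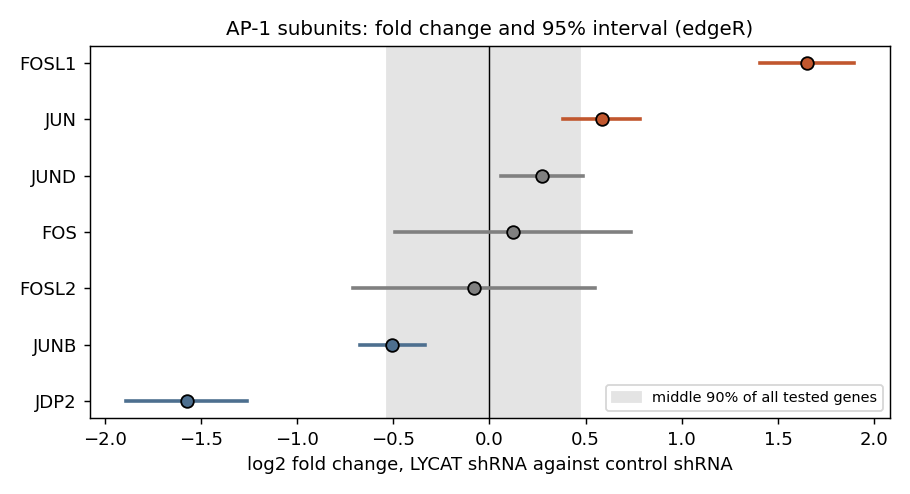
log2 fold change of LYCAT shRNA against control shRNA (horizontal axis) for the 7 tested AP-1 subunits; points are edgeR estimates, bars 95% intervals, orange rose, blue fell, grey did not pass, and the grey band spans the middle 90% of all tested genes, from -0.54 to 0.47. FOSL1 at 1.65 and JDP2 at -1.57 lie far outside the band. JUN at 0.58 lies just outside it, and JUNB at -0.50 lies just inside it.

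To compare subunits with each other, CPM was divided by the exon length of each gene in GENCODE v29. On this per-kilobase scale the control libraries ran in the order JUNB at 74.6 ± 11.2, JUND at 21.1 ± 2.60, JUN at 11.9 ± 0.469, FOSL1 at 8.31 ± 0.0961 and JDP2 at 4.73 ± 0.356 CPM per kilobase. FOS followed at 1.28 ± 0.221, FOSL2 at 0.640 ± 0.253, ATF3 at 0.268 ± 0.0726 and FOSB at 0.0250 ± 0.0216 CPM per kilobase. Each neighbouring pair in that order was separated in the control libraries, with no overlap of their ranges. With LYCAT shRNA the order was JUNB at 52.5 ± 3.41, FOSL1 at 26.2 ± 0.646, JUND at 25.7 ± 2.68 and JUN at 17.7 ± 2.72 CPM per kilobase. FOSL1 and JUND did not differ beyond their spread there. JDP2 at 1.60 ± 0.125 and FOS at 1.39 ± 0.295 CPM per kilobase overlapped too, as did FOSL2 and ATF3 at 0.601 ± 0.0702 and 0.497 ± 0.348 CPM per kilobase. FOSL1 thus ranked behind all 3 JUN family genes in the control libraries and level with JUND in the LYCAT shRNA libraries.

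FOSL1 held most of the FOS family mRNA in both groups. Its share of the summed per-kilobase level was 81.0%, 81.5% and 80.6% in the control libraries and 93.2%, 93.4% and 91.7% in the LYCAT shRNA libraries. The share of FOS was 10.2%, 14.6% and 12.7% with control shRNA and 4.36%, 4.21% and 6.23% with LYCAT shRNA, although its own level did not pass. In the JUN family JUNB held 68.9%, 67.2% and 71.5% with control shRNA and 55.0%, 55.3% and 54.0% with LYCAT shRNA. JUN went from 11.2 ± 1.29% to 18.4 ± 2.64% and JUND from 19.6 ± 1.14% to 26.8 ± 2.60% of that family (SD, n = 3 each). Shares of one family are tied to each other, were read from chosen genes and are given without a test.

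**Figure D3:**
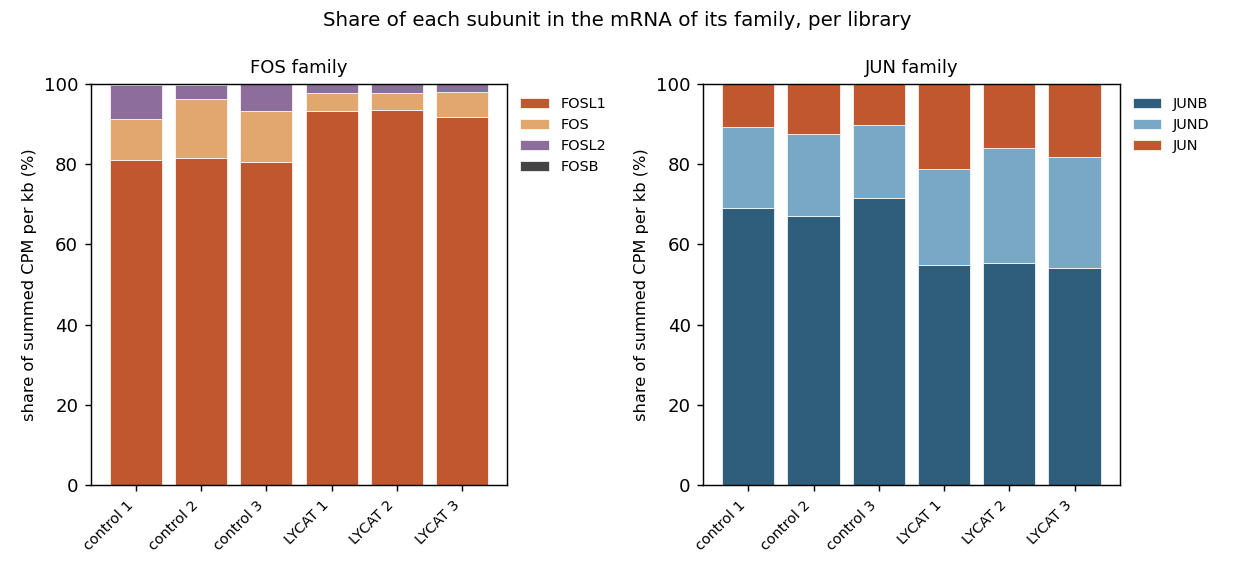
Share of each gene in the summed CPM per kilobase (vertical axis, percent) of the FOS family (left) and the JUN family (right), with 1 stacked bar per library. FOSL1 fills 80.6% to 93.4% of the FOS family bars, and the JUNB part of the JUN family bars is 67.2% to 71.5% in control and 54.0% to 55.3% in LYCAT shRNA libraries.

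All 9 subunits together summed to 123 ± 13.4 CPM per kilobase with control shRNA and 126 ± 5.84 with LYCAT shRNA, a difference within the spread. JUN family mRNA summed to 108 ± 13.7 and 95.9 ± 5.12 CPM per kilobase, with overlapping ranges. FOS family mRNA summed to 10.3 ± 0.0809 and 28.2 ± 0.437 CPM per kilobase. JUN family mRNA was therefore 11.3, 8.95 and 11.2 times FOS family mRNA in the control libraries and 3.44, 3.51 and 3.25 times in the LYCAT shRNA libraries. The ratio of JUNB to JUN was 6.46, 5.32 and 7.02 in the control libraries and 2.60, 3.48 and 2.97 in the LYCAT shRNA libraries. Per kilobase, FOSL1 was 1.76 ± 0.118 times JDP2 with control shRNA and 16.4 ± 1.57 times with LYCAT shRNA. The order in both groups depends on the division by length. In plain CPM the control libraries had JDP2 at 29.5 ± 2.22, above FOSL1 at 15.7 ± 0.181. JUN at 42.1 ± 1.66 and JUND at 39.3 ± 4.84 overlapped there, as did FOSL2 at 4.58 ± 1.81 and FOS at 4.15 ± 0.716. With LYCAT shRNA, JUN at 62.6 ± 9.65 was above FOSL1 at 49.4 ± 1.22 in plain CPM. These are mRNA levels, and protein, phosphorylation and the dimers themselves were not measured.

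JUN, JUNB and JUND each have 1 exon in the GENCODE v29 annotation, and the representative transcripts of the other subunits have 4. The pentamer ATTTA, part of AU-rich elements known to shorten mRNA life, was found 5 times in the 3' untranslated region of FOS (806 bases), 9 times in FOSL2 (4864 bases) and 3 times each in JUN, FOSB, ATF3 and JDP2. It was found 2 times in JUNB and once each in FOSL1 (666 bases) and JUND (681 bases). Among the subunits that rose, FOSL1 had 1 match in 666 bases and JUN 3 in 1287. Among those that fell, JUNB had 2 in 500 bases and JDP2 3 in 4636. These regions differ widely in length, and the part of the matches in the changes was not tested.

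Promoter sequence from RefSeq (GRCh38.p14) was held for 8 of the 9 subunits, for FOSL1 not, covering 250 bases before to 50 after each annotated start. The windows of JUN, JUNB and the second of 3 annotated starts of JDP2 are shown because these subunits changed and each window holds 1 match to a searched motif, given in capitals. In JUN the capitals mark a TGACNTCA element, the kind through which JUN is known to act on its own gene, at positions -67 to -60 from the start. In JUNB they mark the TATA box TATAAA at -31 to -26, and in JDP2 a match to TGATGNAA, the core shared by many ATF4 response elements, at -16 to -9.
JUN, chr1:58783998-58784297, minus strand: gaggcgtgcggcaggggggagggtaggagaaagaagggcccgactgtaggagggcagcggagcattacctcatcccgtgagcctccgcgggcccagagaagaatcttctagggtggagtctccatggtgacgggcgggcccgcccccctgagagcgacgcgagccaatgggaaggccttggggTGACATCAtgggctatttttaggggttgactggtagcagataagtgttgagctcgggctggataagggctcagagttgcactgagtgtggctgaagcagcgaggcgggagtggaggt
JUNB, chr19:12791236-12791535, plus strand: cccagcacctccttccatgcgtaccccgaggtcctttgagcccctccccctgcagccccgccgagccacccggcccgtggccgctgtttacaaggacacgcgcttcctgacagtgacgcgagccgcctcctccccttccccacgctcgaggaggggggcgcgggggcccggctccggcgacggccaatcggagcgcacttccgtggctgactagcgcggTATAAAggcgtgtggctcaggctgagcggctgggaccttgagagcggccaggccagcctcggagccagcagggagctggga
JDP2 second start, chr14:75427772-75428071, plus strand: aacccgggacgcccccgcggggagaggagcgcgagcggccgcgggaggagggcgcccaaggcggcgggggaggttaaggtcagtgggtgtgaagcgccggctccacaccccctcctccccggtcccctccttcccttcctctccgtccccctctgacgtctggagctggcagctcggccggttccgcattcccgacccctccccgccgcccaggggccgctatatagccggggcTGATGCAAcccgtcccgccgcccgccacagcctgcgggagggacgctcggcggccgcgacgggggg

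Both strands were searched for 6 motifs: TGANTCA (the TPA response element), TGACNTCA, TGACGTCA (the cAMP response element, a subset of TGACNTCA), TATAAA, TGATGNAA and the CArG box, the site of serum response factor. TGACNTCA was also found in JUND, where it was a TGACGTCA at -200 to -193, and in the first start of ATF3 at -123 to -116. It occurred in 7.72% of all promoter windows of this length. TGANTCA was found in 1 of the 8 subunits, FOSL2, at 4 to 10 after the start, against 7.71% of all windows, and the CArG box in none of them, against 1.29%. Sites more than 250 bases before a start were not searched, so a subunit without a match here may still have the site further upstream. TATAAA was found in FOS, FOSB, JUNB and the second start of ATF3, against 11.5% of all windows, and TGATGNAA also in the first start of ATF3, against 3.62%. These background shares count single windows, while JDP2 and ATF3 were searched at more than 1 start. Among promoters of genes measured here, TGANTCA was present in 6.72% of 8871 tested genes with a window, in 10.1% of 863 that rose and in 5.85% of 821 that fell. TGACNTCA was present in 8.33%, 10.7% and 7.80% of these, and TGACGTCA in 4.14%, 4.87% and 2.68%. TGATGNAA was present in 2.65% of all tested, 3.01% of those that rose and 5.48% of those that fell. The CArG box was present in 1.56%, 2.90% and 3.05%, and TATAAA in 8.0%, 9.62% and 10.4%, in the same order. A match of letters is a description and shows no binding.

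JDP2 lies beside FOS on chromosome 14, and FOSL1 lies on chromosome 11. Of the 5 nearest tested genes on each side of JDP2, in RefSeq order, 1 of 10 fell and 9 did not pass, near the 9.26% of all tested genes that fell. The one was NEK9, a mitotic kinase gene, which fell from 50.4 to 38.8 CPM (log2 -0.38, edgeR adjusted p = 0.00437). Around FOSL1, 1 of 10 rose and 9 did not pass, near the 9.81% of all tested genes that rose. The one was AP5B1, a subunit of an adaptor protein complex, with log2 0.62 (edgeR adjusted p = 0.0121). AP5B1 did not pass without LYCAT shRNA library 3 (log2 0.39, edgeR adjusted p = 0.244). FOSL1 and JDP2 themselves had log2 fold changes of 1.65 and -1.57.

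The genes with the most similar profile over the 6 libraries were found by the root mean square distance between log2 CPM values centred on each gene's mean, among 9954 genes of at least 5 mean CPM. For FOSL1 they were RPS27L (0.069), ANXA10 (0.089) and G0S2 (0.109), of which RPS27L went from 101 to 333 CPM. For JDP2 they were CTH (0.106), LCLAT1 itself (0.121) and ATP8A1 (0.137). For JUN they were FBXO41 (0.031), C7orf26 (0.041) and ELK3 (0.045), and for JUNB CNEP1R1 (0.044), ZNF567 (0.053) and RCC2 (0.058). CNEP1R1 and ZNF567 did not pass themselves (edgeR adjusted p = 0.129 and 0.128). The distance is in log2 units and describes 6 libraries in 2 groups, so most of the likeness is in the size of the difference between groups.

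Of 32 genes known from the literature as AP-1 targets 20 were tested, of which 11 rose, 2 fell and 7 did not pass; their median was 0.31 on the log2 scale. For all tested genes 9.81% rose and 9.26% fell, and the median was -0.006. IL11, a cytokine, rose 5.26-fold from 13.5 ± 3.35 to 71.0 ± 6.87 CPM, and IL8, a neutrophil chemokine, 2.64-fold from 95.3 ± 8.44 to 251 ± 7.94 CPM. AREG, a ligand of the EGF receptor, rose 2.22-fold from 35.2 ± 1.43 to 78.3 ± 2.97 CPM, and PTGS2, a cyclooxygenase, 1.59-fold from 148 ± 11.4 to 235 ± 11.8 CPM. GSTP1, a glutathione transferase, fell 1.16-fold from 1474 ± 54.1 to 1269 ± 9.04 CPM. VEGFA, an angiogenic factor, fell from 85.8 ± 13.2 to 68.9 ± 2.80 CPM (log2 -0.32), but did not pass without control library 1 (edgeR adjusted p = 0.178), without LYCAT shRNA library 1 (0.0509) or without control libraries 1 and 2 (0.309). Most of these genes also answer to other factors, NF-kB among them. The list was chosen with earlier results of these data known, so its counts are a description and no measure of AP-1 activity.

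The matrix metalloproteinase genes MMP1, MMP3 and MMP13, textbook AP-1 targets, were at or near 0 in these cells. MMP3 and MMP13 had no count in any library, which allows up to 0.606 to 0.966 CPM, and MMP1 was counted once in all 6. CSF2 and SPRR1B were also at 0. At this depth none of these transcripts was detectable above the floor in either group.

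**Figure D4:**
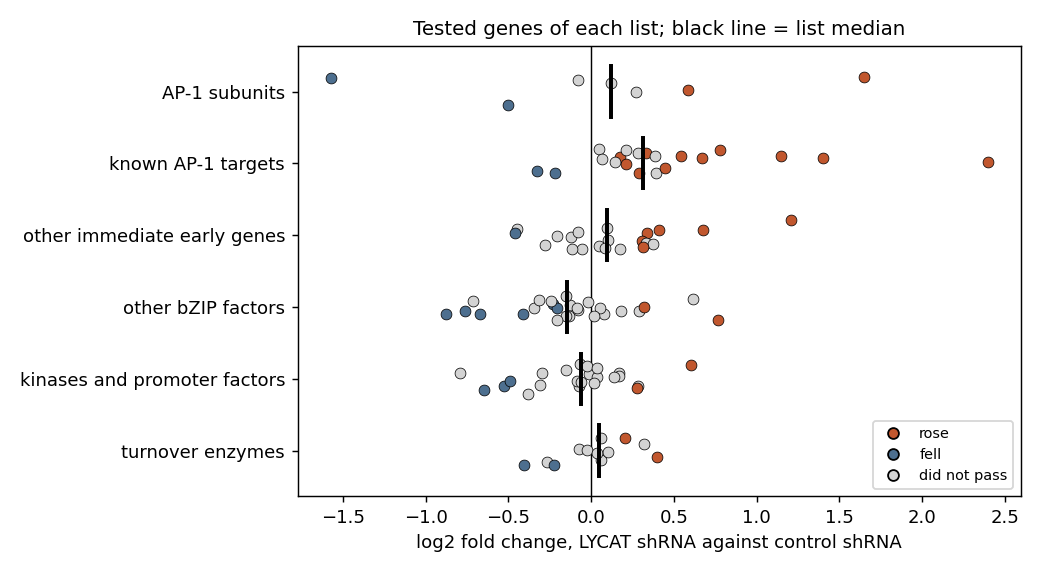
log2 fold change of LYCAT shRNA against control shRNA (horizontal axis) for every tested gene of the AP-1 subunits and of 5 lists; orange points rose, blue fell, grey did not pass, black lines are list medians, and the vertical position within a row is arbitrary. The known AP-1 targets have a median of 0.31, and the other bZIP factors a median of -0.14. The lists were chosen with earlier results of these data known.

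Other immediate early genes, which respond to the same stimuli as FOS and JUN, rose in 6 of 21 tested cases, 1 fell and 14 did not pass; their median was 0.09. Over all tested genes 9.81% were higher and 9.26% lower, with a median of -0.006. IER3, an anti-apoptotic gene, rose 1.26-fold from 549 ± 36.5 to 694 ± 15.5 CPM, and MCL1, a BCL2 family survival gene, 1.24-fold from 424 ± 30.9 to 525 ± 13.2 CPM. The zinc finger factor gene KLF6 rose from 29.8 ± 2.29 to 47.3 ± 4.57 CPM (log2 0.67), and BTG2, an antiproliferative gene that p53 is known to induce, 2.31-fold from 6.71 ± 0.485 to 15.2 ± 3.48 CPM. GADD45B, a stress gene, fell from 20.4 ± 0.501 to 14.9 ± 1.15 CPM (log2 -0.46), and passed without control library 1 or LYCAT shRNA library 3 but in none of the other 4 fits with 1 library left out (edgeR adjusted p = 0.0586 to 0.136).

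Among other bZIP factors, some of which can pair with AP-1 subunits, 2 of 26 tested genes rose, 6 fell and 18 did not pass; their median was -0.14. Against the 9.81% of all tested genes that were higher and the 9.26% that were lower (median -0.006), the number that rose was near the background. BATF3, a JUN partner, rose 1.70-fold from 10.1 ± 2.30 to 17.5 ± 0.186 CPM, while its relative BATF was not counted in any library. MAFK, a small MAF protein, rose from 73.9 ± 6.92 to 92.8 ± 9.24 CPM (log2 0.32), but not without LYCAT shRNA library 2 (edgeR adjusted p = 0.0549). ATF4, the effector of the integrated stress response, stood at 562 ± 51.0 CPM and fell 1.84-fold to 306 ± 6.37 CPM, and XBP1, a factor of the unfolded protein response, 1.70-fold from 149 ± 5.54 to 87.4 ± 6.28 CPM. The C/EBP genes CEBPB and CEBPG fell 1.17-fold and 1.33-fold, from 393 ± 31.3 to 335 ± 15.1 CPM and from 53.3 ± 2.74 to 40.2 ± 1.42 CPM. ATF2 and ATF7, which pair with JUN at cAMP response elements, had log2 values of -0.02 (95% interval -0.23 to 0.19) and -0.13 (-0.41 to 0.16).

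MAP kinases and the factors that act on the FOS and JUN promoters showed a share of changed genes near the 19.1% of all genes, with 2 of 23 tested higher, 3 lower and 18 not passing. ELK3, an ETS factor that works with serum response factor, rose 1.52-fold from 13.7 ± 0.603 to 20.5 ± 2.67 CPM, and SRF itself 1.21-fold from 69.9 ± 7.59 to 84.7 ± 4.62 CPM. Neither rise held throughout: ELK3 did not pass without LYCAT shRNA library 1 (edgeR adjusted p = 0.067), and SRF not without control library 2 (0.108) or LYCAT shRNA library 3 (0.0969). Without control libraries 1 and 2, ELK3 (0.0804) and SRF (0.427) did not pass either. MAPK3, which encodes ERK1, fell 1.44-fold from 30.0 ± 3.01 to 20.7 ± 1.48 CPM. MAP3K1 and MAP3K5, upstream kinases of the JNK pathway, fell 1.41-fold and 1.57-fold, from 39.6 ± 3.24 to 28.5 ± 5.23 CPM and from 19.3 ± 2.34 to 12.4 ± 0.944 CPM. MAP3K1 did not pass without LYCAT shRNA library 3 (edgeR adjusted p = 0.0644), nor MAPK3 (0.099) and MAP3K5 (0.146) without control libraries 1 and 2.

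Of 12 genes for enzymes that modify FOS and JUN proteins or lead to their breakdown, all tested, 2 rose, 2 fell and 8 did not pass, where 19.1% of all tested genes changed (9.81% higher, 9.26% lower). RFWD2, a ubiquitin ligase subunit also known as COP1 that targets JUN, rose 1.32-fold from 24.8 ± 2.39 to 32.9 ± 0.610 CPM. RNF187, a ubiquitin ligase that acts on JUN, rose 1.15-fold from 153 ± 13.0 to 176 ± 8.17 CPM. SENP1, a SUMO protease, and CSNK2A1, a kinase subunit, fell 1.33-fold and 1.17-fold. All 4 changes were small, none passed with DESeq2 (adjusted p = 0.0818 to 0.103), and each was lost without at least 2 of the 6 libraries taken singly. FBXW7, the ligase subunit known to degrade phosphorylated JUN, had a log2 value of -0.07 (95% interval -0.25 to 0.11).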

How the data were processed

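RNA was sequenced from 6 libraries of H2122 cells (3 control shRNA, 3 LYCAT shRNA). The authors deposited 1 table of whole-number counts per gene symbol. The tools named, per the submitters' processing notes, are featureCounts 1.5.1, Bowtie2, BWA 0.7.15 and bcl2fastq 2.17, beside the builds mm10 and hg19. The aligner and build behind the table and the strand setting of the counting are not stated in the sources used. The columns of the LYCAT shRNA group are headed by a name read as a misspelling of LYCAT.

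Genes were filtered with filterByExpr by group (minimum count 10), which left 11097 genes holding 99.77% of counts, so a gene with few counts has no test. Libraries were scaled by TMM (0.993 to 1.01) and compared with edgeR 4.0.16 (R 4.3.3) by the quasi-likelihood F test with group as the only term and robust dispersion, adjusted over all tested genes by Benjamini-Hochberg. SE is the log2 fold change divided by the square root of F, and intervals use the total degrees of freedom. CPM uses all counts of a library times its TMM factor. Per-kilobase levels divide CPM by the union of exons in GENCODE v29 (GRCh38), which is not a build the notes name, so levels between genes are approximate. Log2 CPM for similar profiles used a prior count of 2. DESeq2 1.42.0 and limma-voom (limma 3.58.1) were alternatives, as were DESeq2's size factors, no scaling, other filters on low counts, a replicate block, glmTreat, dispersion without robust fitting, other length scales and leaving out each library. All 3 tools were tested on simulated data. The subunits, lists, tests and alternatives were chosen with earlier results of these data known.

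Named are all 9 subunits and, from each of 5 lists, up to 4 changed genes of smallest adjusted p in each direction. Changed neighbours of JDP2 and FOSL1 and the 3 genes of most similar profile are also named. EPCAM, PTPRC, PECAM1, HOOK2, the scarce target genes, BATF, ATF2, ATF7 and FBXW7 were named after their values were seen.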

Additional observations from a re-analysis of the deposited data

How the results depend on the processing

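FOSL1, JUN, JUNB and JDP2 kept their direction and passed in every alternative, except that against a 1.5-fold change (glmTreat) only FOSL1 and JDP2 passed, 1 subunit higher and 1 lower. FOS reversed to -0.071 without LYCAT shRNA replicate 3 (range with 1 library left out -0.071 to 0.261). FOSL2 reversed to 0.223 without control replicate 1, 0.018 without LYCAT shRNA replicate 3 and 0.01 with limma-voom (range -0.379 to 0.223). Neither passed in any. The same replicate numbers gave correlations of deviations of 0.008, -0.059 and -0.04, and different numbers gave -0.098 to 0.123. No pairing by number was seen, but a weak one could be missed this way. With a replicate block the same 2 subunits rose (log2 1.653 and 0.571) and the same 2 fell (-0.509 and -1.563).

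Over all tested genes, 635 were higher and 558 lower with DESeq2, 84 and 64 with glmTreat, and 578 and 553 without control replicates 1 and 2. With glmTreat, 3 AP-1 targets were higher and 0 lower, 1 immediate early gene higher and 0 lower, 0 other bZIP genes higher and 1 lower, and 0 upstream and 0 turnover genes in either direction. With DESeq2, 1 upstream gene was higher, 0 turnover genes were higher and 0 lower, and 0 immediate early genes were lower. Without control replicates 1 and 2, 1 upstream gene was higher and 1 lower, 0 turnover and 0 immediate early genes were lower, and 1 target was lower. The upstream median of -0.059 was -0.073 with library totals, -0.044 with at least 5 CPM, -0.027 with limma-voom, -0.074 with a replicate block and -0.024 without control replicates 1 and 2. Leaving out 1 library at a time gave 1 to 3 other bZIP genes higher (median -0.157 to -0.08), 1 to 3 upstream genes higher (median -0.088 to -0.007), 0 to 2 turnover genes higher and 0 to 2 lower, 0 to 1 immediate early genes lower (median 0.021 to 0.141) and 1 to 2 targets lower. The change in share of FOSL1 in its family was 11.75 percentage points, 13.31 by longest transcript and 20.53 by plain CPM; by plain CPM it was -11.11 for FOSL2 and 10.76 for JUN. Some alternatives use fewer samples and glmTreat tests for a larger change, but the cause of each difference was not tested. FOS, FOSL2, FOSB and ATF3 are limited by their few counts.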

Other observations

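MAPK8, which encodes the kinase JNK1 that phosphorylates JUN, stood at 0.800 ± 0.0593 CPM with control shRNA and 0.801 ± 0.227 CPM with LYCAT shRNA, close to the floor of 3 counts, while its relative MAPK9, which encodes JNK2, stood at 76.4 ± 8.35 and 78.7 ± 2.85 CPM.

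DDIT3, a bZIP partner of C/EBP proteins that ATF4 is known to induce, fell 1.59-fold, from 20.6 ± 1.60 to 12.6 ± 4.18 CPM (log2 -0.67, edgeR adjusted p = 0.00232). EGR1, an immediate early gene that serum response factor is known to drive, rose 1.33-fold, from 53.9 ± 3.52 to 71.7 ± 2.26 CPM (edgeR adjusted p = 0.000309), while IER2 at 160 ± 16.2 and 171 ± 8.29 CPM did not pass. Of the further AP-1 targets that rose, CD44, a hyaluronan receptor, went from 76.8 ± 5.48 to 132 ± 2.54 CPM, TIMP1, an inhibitor of metalloproteinases, from 170 ± 3.51 to 248 ± 5.20 CPM, and ITGA2, an integrin subunit, from 77.8 ± 3.95 to 107 ± 7.99 CPM. All of these were named after their values were seen.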
